A study of Danio rerio with 6 samples.

Results

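The genes of sterol and fatty acid synthesis were examined in regenerating zebrafish tail fin. Members were the rows of the deposited gene expression table whose gene symbol was on a list of 47 symbols, of which 45 were found among the 24923 genes of the table. The sterol branch held 24 genes and the fatty acid branch 21. The symbols acly and mlxipl of the fatty acid branch had no row. RNA was sequenced from tail fin tissue of larvae immersed in 8 μM sunitinib, an anticancer drug that inhibits several receptor tyrosine kinases, and of larvae immersed in the vehicle, 0.1% DMSO, which the sunitinib solution also contained. Both groups were exposed from 2 days post-fertilization, had the tail fin amputated at 3 days and were sampled 6 h after amputation, with 3 biological replicates a group. Each replicate pooled tail fins of more than 60 larvae, and the labels name the AB strain and the Tg(MPEG-GFP) line without saying which was sequenced.

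Cholesterol is built from acetyl-CoA through mevalonate and squalene, and fatty acids are built from the same acetyl-CoA through malonyl-CoA. In vertebrates, SREBP transcription factors drive both branches: SCAP carries them out of the endoplasmic reticulum when sterols are scarce, and INSIG proteins hold them back when sterols are plentiful. The sterol branch is known mainly for the form encoded by srebf2 and the fatty acid branch for the form encoded by srebf1. A change in SREBP activity therefore reaches many of these genes at the same time.

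In neither branch did all genes share a direction with sunitinib. Of the 43 members with enough reads to be tested, the log2 fold change of sunitinib over DMSO was above 0 in 22, where 49.5% of all genes tested were above 0, and below 0 in 21. The median was 0.0092, against -0.0041 over all 17309 genes tested. No member passed an adjusted p of 0.05 in edgeR's quasi-likelihood test, where 0% of all genes tested did so in either direction. The smallest adjusted p of a member was 0.221. At an unadjusted p under 0.05 there were 6 members, or 14.0% of those tested, against 13.6% of all genes tested. The groups did not overlap in 8 members, or 18.6%, against 19.9% of all genes tested. Of these, 5 were higher and 3 lower in every sunitinib library, against 9.15% and 10.8% of all genes tested. These shares lie close to the background, so no count sets the members apart. DESeq2 called 28 higher and 15 lower genes, which is 0.2% and 0.107% of the 14014 genes it adjusted. None of them was a member, while some members of low count, such as hmgcra, ldlra and srebf1, got no adjusted p. Since the samples were bulk tissue, fewer cells of a type and less RNA per cell cannot be told apart in any of these values.

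**Figure D1:**
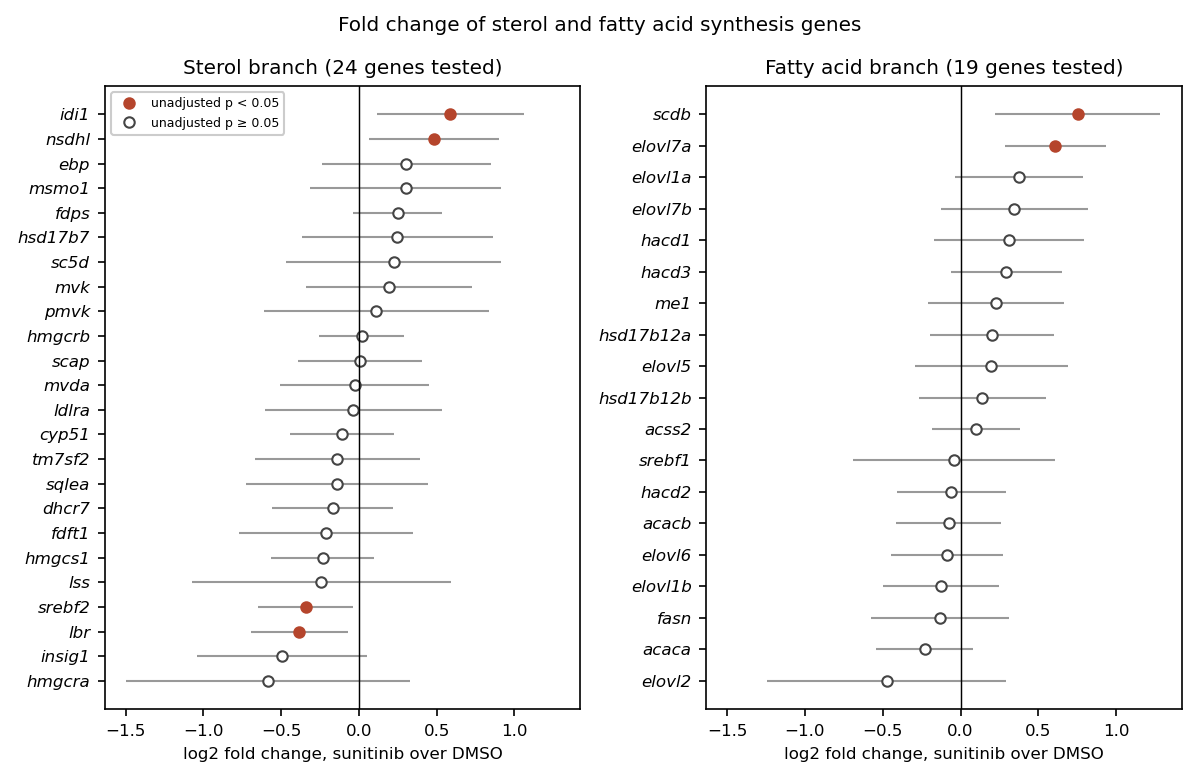
Log2 fold change of sunitinib over DMSO for each tested gene of the sterol branch (24 genes, left) and the fatty acid branch (19 genes, right). Points are edgeR estimates, lines are 95% confidence intervals and filled points have an unadjusted p under 0.05: idi1, nsdhl, srebf2 and lbr on the left and scdb and elovl7a on the right.

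The libraries held 14813183 to 15294706 estimated reads with sunitinib and 13394060 to 14780202 with DMSO, and a member had 1 to 2628 reads in a library. DMSO replicate 1 stood apart from the others. It gave the lowest value for 14 of the 43 tested members (32.6%), against 25.2% of all genes tested, and the highest for 8, where 25.9% of all genes tested were highest in it. Skeletal muscle markers summed to 216811 to 275050 CPM (counts scaled to normalized library size) with sunitinib and to 181809 to 269569 CPM with DMSO. That is 21.7% to 27.5% and 18.2% to 27.0% of the normalized library size, which is not the number of reads. The lowest sum was that of DMSO replicate 1. All 17 epidermal markers were detected, and their sums were 33983 to 38953 CPM with sunitinib and 30546 to 33289 with DMSO. Of them, 14 had a positive log2 fold change, or 82.4%, against 49.5% of all genes tested. In 6, or 35.3%, every sunitinib library was above every DMSO library, against 9.15% of all genes tested. The epidermal markers are short, with a median effective length of 1308 bases. Of the 8654 tested genes shorter than the median tested gene (2056 bases), 5766 had a positive log2 fold change. Genes listed as markers of liver, yolk syncytial layer, intestine, macrophages, notochord with cartilage and neural cells were also read. Their sums overlapped between the groups. Within the liver list, fabp10a was read 2 times in sunitinib replicate 1 and 0 times in every other library. apoa2 of that list had 37094 to 71788 reads. The yolk syncytial layer sum was 5536 to 6987 CPM with sunitinib and 5773 to 9729 with DMSO, highest in DMSO replicate 1. Of that list, vtg1, vtg2 and ttr had 0 to 5 reads. Its 7 tested genes did not share a direction in DMSO replicate 1, where 3 were highest and 3 lowest. There apoa1b had 76543 reads and apoc1 7703. The 9 xanthophore markers summed to 397 to 475 CPM with sunitinib and 512 to 532 with DMSO, without overlap. The part of these cell types in the results was not tested.

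The level of each gene per length was read from FPKM. In the sterol branch, idi1 and fdps stood at the top, with means of 20.6 and 17.6 FPKM over the 6 libraries and ranges that overlapped. The isomerase encoded by idi1 makes the reactive isoprene unit, and fdps encodes farnesyl diphosphate synthase, which joins such units. Every library had a lower FPKM for hmgcrb, the third in the order at 9.88, than for fdps. Below that, each gene overlapped with the next in the order, down to hmgcra at 0.425 and ldlra, an LDL receptor gene, at 0.41 FPKM. Its paralog ldlrb, which is not a member, had a mean of 3.13 FPKM. In the fatty acid branch hacd1 led with 71.1 FPKM, and its lowest library was at 42.5, above the highest library of elovl1b at 29.7. hacd1 encodes a dehydratase of the elongation cycle known for its expression in muscle. The next step in this branch lay between scdb at 1.56 FPKM and srebf1 at 0.61. The last 2 were fads2 and scd, with means of 0.327 and 0.147 FPKM.

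**Figure D2:**
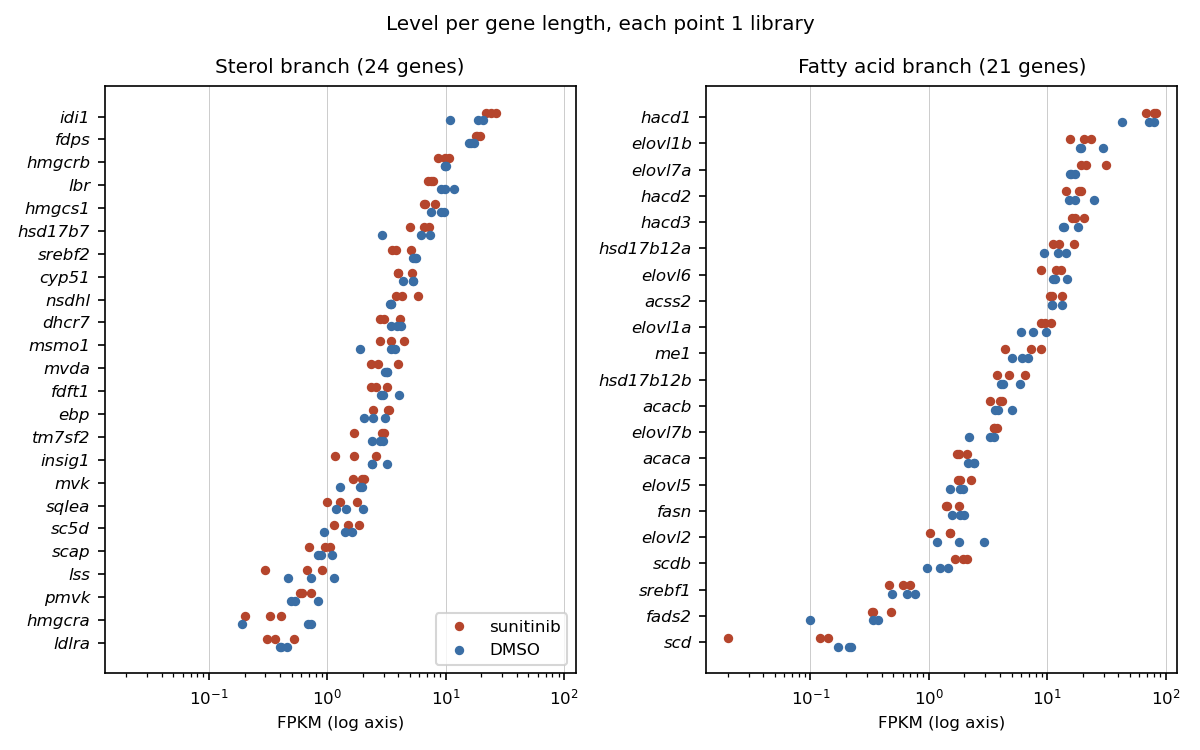
FPKM of every member in every library on a log axis, with sunitinib drawn above DMSO for each gene and genes ordered by their mean. The sterol branch ran from 20.6 (idi1) to 0.41 FPKM (ldlra) and the fatty acid branch from 71.1 (hacd1) to 0.147 FPKM (scd).

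Duplicated genes were used unequally, and in each pair the more abundant copy was the same in all 6 libraries. HMG-CoA reductase, the rate-limiting enzyme of the mevalonate pathway and the target of statins, was read almost wholly from hmgcrb, whose FPKM exceeded that of hmgcra 13.6 to 52.3 times in each library. The elongase gene elovl7b had 0.114 to 0.228 times the FPKM of elovl7a. elovl1b exceeded elovl1a 1.78 to 4.94 times, and acacb exceeded acaca 1.5 to 2.2 times. hsd17b12b, a ketoacyl-CoA reductase gene of the elongation cycle, had 0.291 to 0.633 times the FPKM of hsd17b12a. The ratio of scdb to scd was 84, 13.9 and 17.5 with sunitinib and 4.62, 7.29 and 6.55 with DMSO. It was higher in every sunitinib library, but scd had under 10 reads in each library, so that these ratios rest on few reads.

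In the mevalonate part of the sterol branch, 4 of 7 genes lay above 0 on the log2 scale and 3 below, with a median of 0.02. idi1 was at 88.3, 69.4 and 68.8 CPM with sunitinib, against 31.1, 58.4 and 61.0 CPM with DMSO. All sunitinib libraries lay above all DMSO libraries, and DMSO replicate 1 lay far below the other two. The log2 fold change was 0.59 (SE, the standard error, 0.22, adjusted p = 0.314, edgeR), and it was 0.34 (SE 0.15, adjusted p = 0.369) without DMSO replicate 1, the library that was also lowest in muscle markers. That library also had the highest sum of yolk syncytial layer markers, although of the 7 tested 3 were highest and 3 lowest in it. The part of muscle or yolk in this value was not tested.

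hmgcs1, which encodes HMG-CoA synthase at the entry of the pathway, was at 21.9, 18.2 and 24.5 CPM with sunitinib and at 25.4, 22.4 and 28.0 CPM with DMSO. The groups overlapped, with a log2 fold change of -0.23 (SE 0.15, adjusted p = 0.50, edgeR), and it ran from -0.33 without sunitinib replicate 3 to -0.12 without sunitinib replicate 2. hmgcrb had the smallest SE of the tested members and was at 30.1, 31.6 and 32.0 CPM with sunitinib and 29.3, 32.0 and 31.3 CPM with DMSO. Its log2 fold change was 0.02, and the 95% interval of -0.26 to 0.29 leaves room for only small differences. The minor copy hmgcra was read 18, 22 and 11 times with sunitinib and 33, 10 and 33 times with DMSO. Its lowest and its highest count were both DMSO libraries. The log2 fold change of -0.58 had an interval of -1.5 to 0.33, which did not settle a direction. Leaving out DMSO replicate 2 gave -0.95, and leaving out DMSO replicate 1 gave -0.33. The kinase genes mvk and pmvk had 0.19 and 0.11, and the decarboxylase gene mvda had -0.03.

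From farnesyl diphosphate to squalene epoxide, the 3 genes went different ways. fdps was at 31.8, 29.0 and 30.0 CPM with sunitinib, against 24.3, 27.8 and 24.3 CPM with DMSO. The groups did not overlap, while the difference was small, at 0.25 on the log2 scale (SE 0.13, adjusted p = 0.416, edgeR). fdft1, the squalene synthase gene, had -0.21, which turned to 0.11 without DMSO replicate 2. sqlea, whose product oxidizes squalene and limits the later part of the pathway, was at 2.01, 3.05 and 2.42 CPM with sunitinib and 2.03, 2.70 and 3.56 CPM with DMSO. Those values overlapped widely, and the log2 fold change was -0.14 (SE 0.27, adjusted p = 0.829).

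Of the 10 genes from squalene epoxide to cholesterol, 5 lay above 0 on the log2 scale and 5 below. nsdhl, which encodes a dehydrogenase that helps remove methyl groups from the sterol ring, was at 4.84, 6.35 and 5.05 CPM with sunitinib, against 3.77, 4.02 and 3.83 CPM with DMSO. The DMSO libraries were close to each other and below every sunitinib library. The log2 fold change was 0.48 (SE 0.19, adjusted p = 0.329, edgeR). lbr encodes a sterol reductase that is also the lamin B receptor of the inner nuclear membrane, and it was at 17.3, 15.3 and 17.4 CPM with sunitinib, against 20.3, 20.3 and 24.6 CPM with DMSO. Every sunitinib library was below every DMSO library, with a log2 fold change of -0.38 (SE 0.14, adjusted p = 0.314). The second reductase gene for that step, tm7sf2, had -0.14.

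The remaining ring genes did not separate the groups. Their log2 fold changes were 0.31 for ebp, a sterol isomerase gene, 0.30 for msmo1, a methylsterol oxidase gene, 0.25 for hsd17b7, a ketosterol reductase gene, and 0.22 for sc5d, a sterol desaturase gene. Negative values were found for lss, which encodes lanosterol synthase, at -0.24, for dhcr7, which acts in the last step, at -0.17 and for cyp51, the lanosterol demethylase gene, at -0.11. For ebp, msmo1 and hsd17b7 the lowest library was DMSO replicate 1, as for idi1. hsd17b7 was read 159, 143 and 113 times with sunitinib and 58, 135 and 157 times with DMSO. Outside DMSO replicate 1, its counts overlapped. Without that library hsd17b7 turned to -0.071, while msmo1 was at 0.035, ebp at 0.15 and lss, which turned as well, at 0.090.

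Of the 3 genes that sense sterols and regulate the pathway, 1 was higher in value and 2 were lower, none past the adjusted threshold. srebf2 was at 16.0, 19.6 and 15.9 CPM with sunitinib, against 20.9, 22.0 and 22.4 CPM with DMSO. All sunitinib libraries lay below all DMSO libraries, with a log2 fold change of -0.34 (SE 0.14, adjusted p = 0.339, edgeR). insig1, itself a known target of SREBP, was read 25, 55 and 37 times with sunitinib and 61, 51 and 50 times with DMSO. The groups overlapped through sunitinib replicate 2 alone. The log2 fold change was -0.49 (SE 0.25, adjusted p = 0.402), and it was -0.76 without sunitinib replicate 2 and -0.30 without sunitinib replicate 1. scap did not differ beyond the spread, with 0.01 (95% interval -0.39 to 0.41).

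ldlra, a classical SREBP target, was read 22, 36 and 26 times with sunitinib and 26, 32 and 27 times with DMSO. Its log2 fold change was -0.04 with an interval of -0.61 to 0.53. The more abundant paralog ldlrb, not a member, was read 131 to 191 times in a library and had -0.15 (SE 0.17). The sterol branch thus held 2 genes that were higher (idi1, nsdhl) and 2 that were lower (lbr, srebf2) at an unadjusted p under 0.05, against 7.51% and 6.12% of all genes tested. Its 24 genes had 11 positive and 13 negative values, with a median of -0.03. Among known SREBP targets, of which these are a part, hmgcs1, sqlea, ldlra and insig1 had negative values and idi1 and fdps positive ones. With 1 replicate left out, sqlea ran from -0.32 to 0.083 and ldlra from -0.20 to 0.070. SREBP activity was not tested. As the median deviation from each gene's mean, the branch lay at -0.05, 0.12 and -0.10 in the sunitinib replicates and at -0.06, 0.10 and 0.04 in the DMSO replicates. The groups overlapped on that scale.

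**Figure D3:**
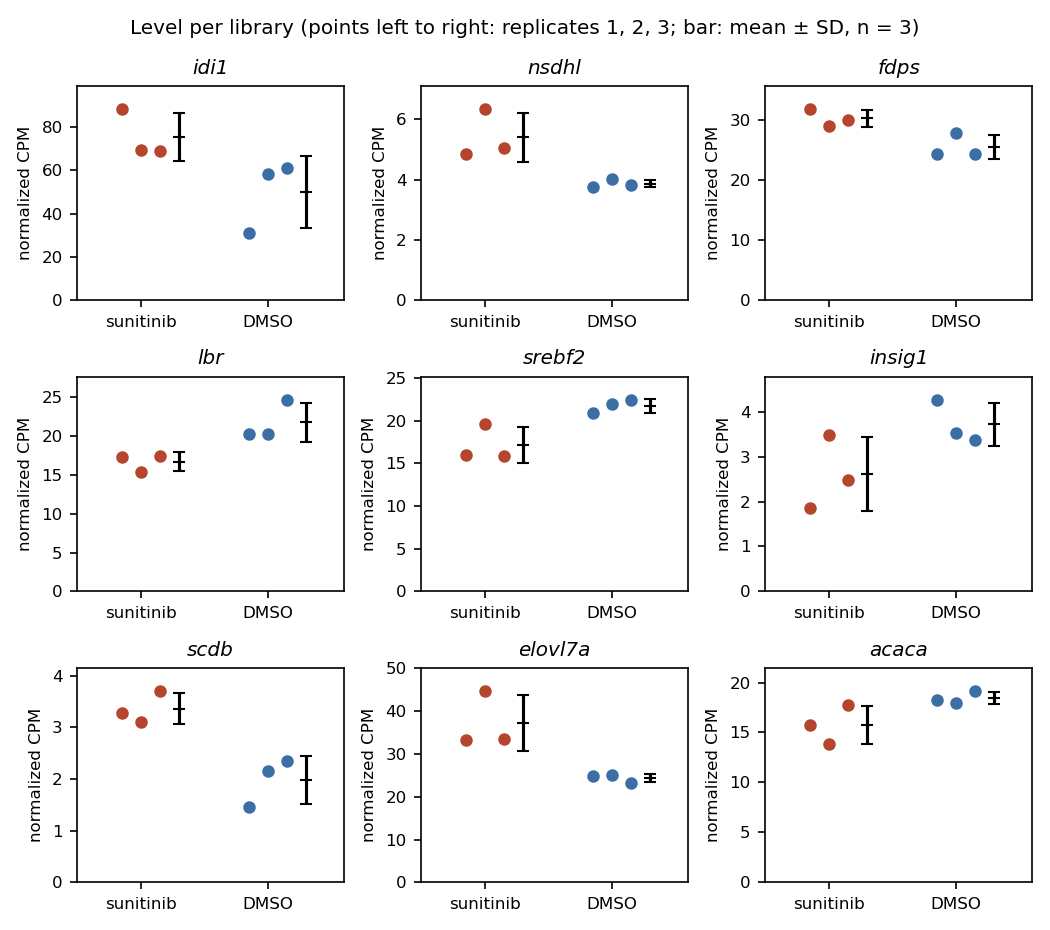
Normalized CPM of 9 members in each library, sunitinib left of DMSO, with bars for mean ± SD (n = 3 each). In idi1, nsdhl, fdps, scdb and elovl7a every sunitinib library lay above every DMSO library, in lbr, srebf2 and acaca every one lay below, and in insig1 the groups overlapped.

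The fatty acid branch had a median log2 fold change of 0.14 over its 19 tested genes, with 11 positive and 8 negative values. The 3 genes of malonyl-CoA and palmitate synthesis all had negative values, a direction they did not share after correction for the trend on length. acaca, which encodes the acetyl-CoA carboxylase of the cytosol, was at 15.7, 13.8 and 17.7 CPM with sunitinib, against 18.3, 17.9 and 19.2 CPM with DMSO. The groups did not overlap, although sunitinib replicate 3 came close to the lowest DMSO library. The difference was -0.23 on the log2 scale (SE 0.14, adjusted p = 0.480, edgeR). Its values rest on reads that the authors' estimate did not leave whole in 2 libraries.

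fasn, which encodes fatty acid synthase, was at 9.82, 6.09 and 7.0 CPM with sunitinib and at 6.85, 9.0 and 9.14 CPM with DMSO. Each group held both high and low libraries, and the log2 fold change was -0.13 (SE 0.20, adjusted p = 0.788, edgeR). acacb, the carboxylase gene linked to mitochondria in mammals, had -0.08 (SE 0.16), which turned to 0.080 without DMSO replicate 3 and to 0.083 with the trend on length taken out. Of the genes that supply acetyl-CoA and NADPH, acss2 had 0.10 and me1, whose counts were not whole in any library, had 0.23. srebf1 was read 26, 20 and 31 times with sunitinib and 19, 28 and 32 times with DMSO, with a log2 fold change of -0.04 and an interval of -0.69 to 0.61.

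Of the 3 desaturase genes only scdb was tested, and it had the largest log2 fold change among the tested members. scdb, which encodes a stearoyl-CoA desaturase that introduces the first double bond, was at 3.27, 3.11 and 3.70 CPM with sunitinib, against 1.47, 2.15 and 2.35 CPM with DMSO. Every sunitinib library was above every DMSO library. The mean was 3.36 ± 0.306 CPM with sunitinib and 1.99 ± 0.463 CPM with DMSO (SD, n = 3 each), a log2 fold change of 0.75 (SE 0.25, adjusted p = 0.304, edgeR). Without DMSO replicate 1 it was 0.58 (adjusted p = 0.369).

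The second desaturase gene, scd, had counts in the opposite order and was too low to be tested. It was read 1, 6 and 5 times with sunitinib and 8, 7 and 9 times with DMSO. Every sunitinib count lay below every DMSO count, on 12 reads against 24 in all. With the filter on low counts taken off, edgeR gave a log2 fold change of -0.99 (SE 0.60, adjusted p = 0.542). fads2, the desaturase of polyunsaturated fatty acids, was also too low, with 7, 10 and 7 reads with sunitinib and 7, 7 and 2 with DMSO.

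Among the elongases, elovl7a had the smallest p of all members. It was at 33.3, 44.7 and 33.5 CPM with sunitinib, against 24.9, 25.1 and 23.3 CPM with DMSO. The DMSO libraries agreed closely and the lowest sunitinib library stood above each of them. The mean was 37.2 ± 6.53 CPM with sunitinib and 24.4 ± 0.994 CPM with DMSO (SD, n = 3 each), a log2 fold change of 0.61 (SE 0.15, 95% interval 0.29 to 0.93, adjusted p = 0.221, edgeR). In DESeq2 the adjusted p was 0.0826. Leaving out 1 library at a time gave 0.46 to 0.69. Its paralog elovl7b had 0.35 (SE 0.22), with groups that overlapped. Epidermal markers were higher as a sum in the same libraries, and their part in the elovl7a value was not tested.

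elovl1a, an elongase gene of very long chains, had 0.37 (SE 0.19, adjusted p = 0.397, edgeR), with 13.8, 14.4 and 14.1 CPM with sunitinib and 8.03, 14.1 and 10.4 CPM with DMSO. The sunitinib libraries were alike and the DMSO libraries were spread. Its more abundant paralog elovl1b had -0.13. elovl6, which lengthens palmitate, was at 10.1, 11.5 and 13.9 CPM with sunitinib and 14.2, 11.8 and 11.7 CPM with DMSO, a log2 fold change of -0.09 (SE 0.17). elovl5 and elovl2, elongase genes of polyunsaturated fatty acids, had 0.20 and -0.48, the second on 16 to 43 reads in a library. For elovl2, elovl5 and elovl1a the size shifted with the library left out, while the sign stayed. elovl2 was at -0.083 without DMSO replicate 3 and at -0.75 without DMSO replicate 1. elovl5 was at 0.047 without sunitinib replicate 1 and 0.32 without DMSO replicate 2. elovl1a was at 0.20 without DMSO replicate 1 and 0.61 without DMSO replicate 2.

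The ketoacyl-CoA reductase and dehydratase genes of the elongation cycle had 4 positive values and 1 negative. hacd3 had 0.29, hsd17b12a 0.20 and hsd17b12b 0.14, while hacd2 had -0.06. Without DMSO replicate 1, hsd17b12a was at 0.025, hacd3 at 0.19 and hsd17b12b at 0.30, and hacd2 turned to 0.13. hsd17b12b was at -0.0094 without sunitinib replicate 2. hacd1 was at 196, 161 and 151 CPM with sunitinib and 84.8, 174 and 150 CPM with DMSO, a log2 fold change of 0.31 (SE 0.22, adjusted p = 0.531, edgeR). DMSO replicate 1, the library lowest in muscle markers, was again low, and the other 5 libraries overlapped. Without it the value was 0.062. The part of muscle or yolk was not tested. At an unadjusted p under 0.05 the branch held 2 higher genes, scdb and elovl7a, and no lower one, against 7.51% and 6.12% of all genes tested. Its median deviation was 0.09, 0.09 and 0.06 in the sunitinib replicates and -0.20, 0.01 and -0.09 in the DMSO replicates. These did not overlap, and the median log2 fold change was 0.07 without sunitinib replicate 2 and 0.16 without sunitinib replicate 3.

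**Figure D4:**
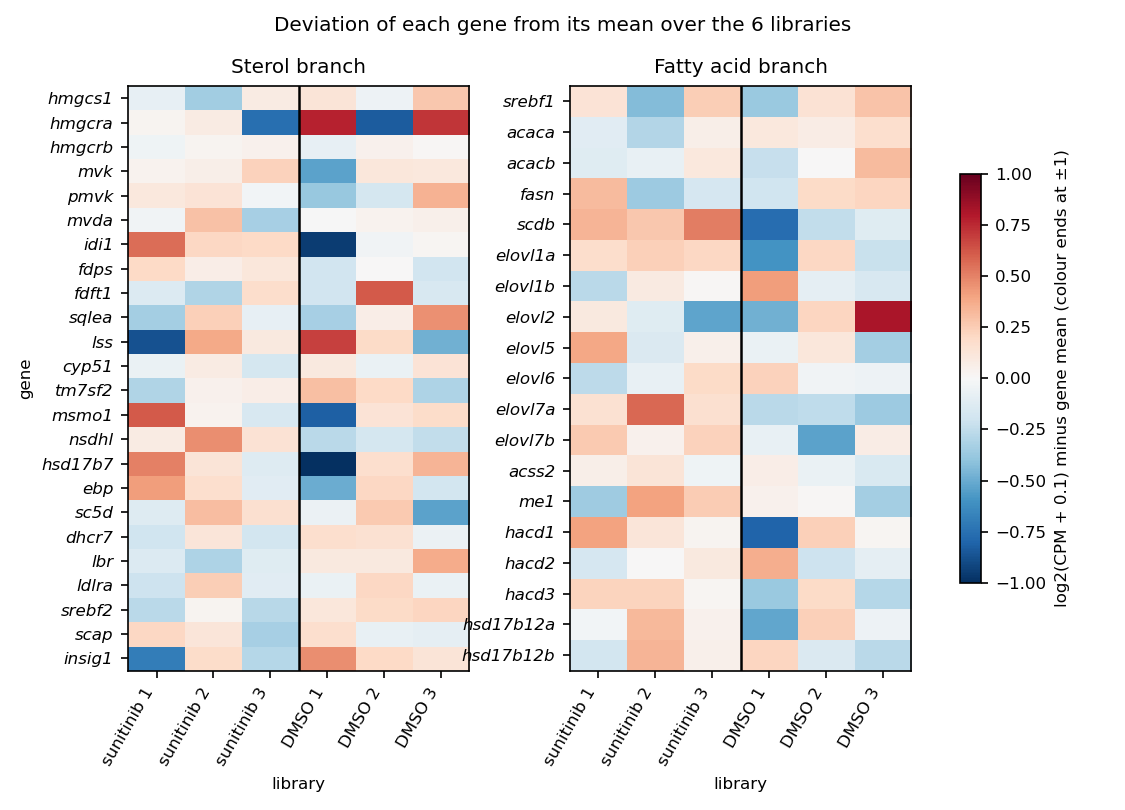
Deviation of each tested member from its own mean over the 6 libraries, as log2(CPM + 0.1), with sunitinib libraries left of the line and DMSO libraries right of it; colour ends at ±1. DMSO replicate 1 was the lowest library for 14 of the 43 genes, among them idi1, msmo1, hsd17b7 and hacd1.

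Fold changes followed gene length across the whole table, and the members followed it too. Of the 27 members shorter than the median tested gene (2056 bases of effective length), 17 lay above 0 on the log2 scale, with a median of 0.20, while over all tested genes of that class the median was 0.14. Of the 16 longer members, 5 were positive, with a median of -0.09, against -0.11 over all longer genes. The long genes acaca, srebf2 and fasn are among those with negative values. With the trend on length taken out, acaca had -0.08 (SE 0.13) and srebf2 -0.22 (SE 0.13, adjusted p = 0.540, edgeR), and fasn lay at 0.00035. Of the 19 tested genes of the fatty acid branch, 3 changed sign, srebf1, acacb and fasn, each from negative to positive. scdb and elovl7a kept 0.69 and 0.52, idi1 had 0.68, lbr -0.36 and insig1 -0.60. nsdhl had 0.33 (SE 0.19), and neither it nor srebf2 kept an unadjusted p under 0.05. insig1 came under it in that fit, with an unadjusted p of 0.029 (adjusted p = 0.396, edgeR), from 0.074 before. What the trend on length reflects was not tested.

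**Figure D5:**
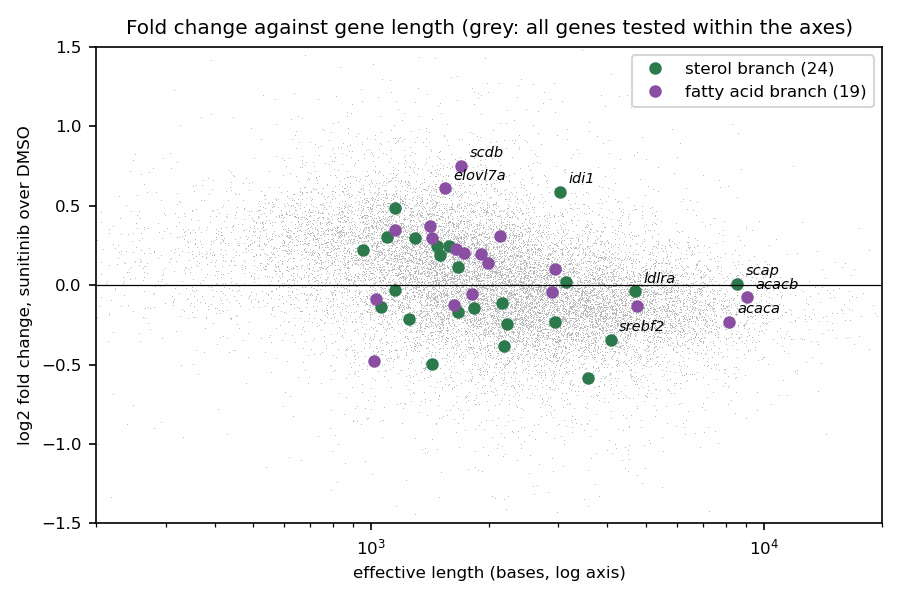
Log2 fold change of sunitinib over DMSO against effective length (bases, log axis) for the sterol branch (24 genes), the fatty acid branch (19 genes) and all other genes tested that lie within the axes (grey). Most of the 27 shorter members lie above 0 (17 genes) and most of the 16 longer members below it (11 genes).

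Other genes of these pathways, listed beside the members, did not share a direction either. Of 24 tested genes of sterol transport, turnover and isoprenoid side branches, 15 lay above 0 on the log2 scale and 9 below, and the median was 0.09. mylipa, whose mammalian counterpart marks the LDL receptor for degradation, was at 11.4, 11.7 and 14.2 CPM with sunitinib, against 8.03, 9.07 and 8.27 CPM with DMSO. The groups did not overlap, with a log2 fold change of 0.55 (SE 0.16, adjusted p = 0.286, edgeR). dhdds, of dolichol synthesis, had 0.42 (SE 0.18), acat2, which condenses acetyl-CoA at the entry of the sterol pathway, 0.36 (SE 0.18), and abca1a, a cholesterol exporter, 0.34 (SE 0.17). For these 3 genes the groups overlapped. abca1b, the paralog of abca1a, had -0.26 (SE 0.18), with groups that overlapped as well.

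Of 29 other genes of fatty acid synthesis and activation, 13 had a positive and 16 a negative value, with a median of -0.05. The pair with the smallest p encodes relatives of a mammalian protein that activates acetyl-CoA carboxylase. mid1ip1a was at 45.7, 51.3 and 48.8 CPM with sunitinib, against 17, 32.7 and 33.0 CPM with DMSO, or 0.82 on the log2 scale (SE 0.21, adjusted p = 0.262, edgeR). mid1ip1l was at 16.8, 16.4 and 15.8 CPM with sunitinib, against 12.0, 10.7 and 11 CPM with DMSO, or 0.54 on the log2 scale (SE 0.14, adjusted p = 0.274). In both, every sunitinib library was above every DMSO library, and for mid1ip1a the value was 0.57 without DMSO replicate 1. Their paralog mid1ip1b had 0.24 (SE 0.22), with groups that overlapped. The acyl-CoA synthetase genes acsl3b and acsl1b, whose products activate fatty acids, had -0.48 and -0.49 (SEs 0.15 and 0.16). acsl1b was at 5.66, 5.84 and 5.18 CPM with sunitinib, against 7.96, 7.96 and 7.53 CPM with DMSO, and acsl3b had every sunitinib library below every DMSO library as well. mid1ip1a and mid1ip1l have effective lengths of 958 and 966 bases, and acsl1b and acsl3b of 2139 and 4538. mid1ip1b has 514 bases, and the median over all genes tested is 2056 bases. Tested genes shorter than that had a median log2 fold change of 0.14, and the longer ones -0.11. The part of the length trend in the values of these listed genes is not given here. Together, 5 genes of this list and 2 of the sterol list had an unadjusted p under 0.05, against 13.6% of all genes tested.

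The precision sets how far these values can be read. Of the 43 tested members, 37 had a 95% interval that lay within a log2 change of 1 in either direction, and 8 had one within 0.5. SEs ran from 0.13 to 0.42. A doubling or halving was therefore outside the interval for 37 members, while smaller differences could not be resolved for most of them. When 1 library at a time was left out, elovl7a and scdb kept an unadjusted p under 0.05 in 6 of 6 fits. idi1 kept it in 5, lbr and nsdhl in 4 each and srebf2 in 2. These members were picked by that p in the full fit, and each refit shared its libraries, so the counts only describe. In DESeq2, nsdhl (unadjusted p = 0.067) and srebf2 (unadjusted p = 0.061) did not keep it, while the others did.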

How the data were processed

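RNA was sequenced with strand-specific, paired-end 150 bp libraries. The authors removed low-quality reads and quantified genes on GRCz11, a build given in the submitters' processing notes too. Neither the aligner nor the counting software is given by the sources used here. They deposited 1 table with an estimated count per gene and replicate (92.5% to 93.0% whole numbers, not normalized), values as FPKM and as TPM, scaled for length and depth, and a normalized read count signal, the deposited count divided by 1 factor per replicate. TPM, that signal and the authors' averages were not used.

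Estimated counts were rounded and tested with edgeR 4.0.16 in R 4.3.3 (TMM, filterByExpr, quasi-likelihood F-test, Benjamini-Hochberg over the 17309 genes tested, threshold 0.05). Normalized CPM were computed with TMM library sizes. p-values set the difference between the groups against the spread between the pools. Effective length was derived from counts and FPKM, so levels are compared between genes as FPKM only. Alternatives were other scaling factors, filters, a replicate block, leaving out each replicate, DESeq2 1.42.0, limma 3.58.1 on log2(FPKM + 1), kept where 3 libraries reached an FPKM of 1, and a lowess (span 0.3) per library on length. The fit was tested on simulated data. The members and lists were chosen with earlier results of these data known. Named genes were members with an unadjusted p under 0.05 or groups that did not overlap, 12 members of defining role, the paralogs of members, and 4 genes of smallest p in each further list. The paralogs mid1ip1b, ldlrb and abca1b were added to these. Promoter motifs and protein identities were not analysed here.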

Additional observations from a re-analysis of the deposited data

How the results depend on the processing

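No member passed an adjusted p of 0.05 under any alternative that gave it one. DESeq2 gave no adjusted p for hmgcra, pmvk, srebf1, ldlra, sc5d, lss, elovl2, scd and fads2. The limma fit did not hold hmgcra, pmvk, srebf1, ldlra, lss, scap, scd and fads2. Over all genes edgeR called none, while it called 12 without the filter on low counts and 0 to 3 when 1 replicate was left out (3 without DMSO replicate 1), and DESeq2 called 43 and limma none. The median log2 fold change of the sterol branch ran from -0.11 to 0.02 and that of the fatty acid branch from 0.07 to 0.16 when 1 replicate was left out. Sterol genes at an unadjusted p under 0.05 were 1 higher and 1 lower with DESeq2, 1 higher and 3 lower with limma, 1 higher and 2 lower with the length trend taken out, and 1 to 3 higher and 0 to 2 lower with 1 replicate left out. For the fatty acid branch these were 2 to 5 higher (5 without DMSO replicate 2) and 0 to 1 lower. The median of the other sterol genes was 0.022 with limma and 0.050 with the length trend taken out, and 0.053 to 0.11 with 1 replicate left out. Of the 43 tested members, 16 changed sign when 1 replicate was left out and 4 with the length trend taken out, none of them among the 6 with an unadjusted p under 0.05. With the length trend taken out ldlra was at 0.092, acacb at 0.083, srebf1 at 0.042 and fasn at 0.00035, and with 1 replicate left out ldlra ran from -0.20 to 0.070, srebf1 from -0.22 to 0.16, fasn from -0.34 to 0.012, elovl6 from -0.21 to 0.018 and sqlea from -0.32 to 0.083. The cause was not tested. The replicate numbers did not pair the samples (correlation of deviations -0.17, -0.10 and 0.02), and with the replicate block no gene was called and the branch medians were -0.05 and 0.14. Low counts left scd and fads2 untested. The genes hmgcra, pmvk, lss, sc5d and elovl2, also of low count, had the largest SEs of the tested members.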

Other observations

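The rows that stand for the missing symbols were looked up after the table was read and are not counted among the members. ATP citrate lyase, which makes cytosolic acetyl-CoA from citrate, was present as aclya and aclyb. aclya was at 68.2, 70.3 and 64.3 CPM with sunitinib and 70.2, 74.9 and 78.4 CPM with DMSO, or -0.14 on the log2 scale (SE 0.13, adjusted p = 0.626, edgeR). The groups touched through sunitinib replicate 2. aclyb had -0.07 (SE 0.17). A row whose identifier the RefSeq gene table (GRCz12tu) names mlxipl, the carbohydrate-responsive transcription factor gene, was read 8 times in each sunitinib library and 5, 4 and 3 times with DMSO, too few to be tested. In that RefSeq annotation, 44 of the 45 members were found by identifier, and mvk and acacb, of different branches, lie near each other with 6 protein-coding genes between them. Their log2 fold changes were 0.19 and -0.08.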
